A study of Mus musculus with 4 samples.

Results

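The genes described here encode the enzymes that add or remove methyl and acetyl groups on histones in 3T3-L1 cells, a line of murine preadipocytes that turn into fat cells under adipogenic hormones. They were taken by symbol, as the lysine demethylases (Kdm), the lysine methyltransferases named Kmt, the SET-domain proteins (Setd), the arginine methyltransferases (Prmt), the classical deacetylases (Hdac), the acetyltransferases (Kat) and the Polycomb methyltransferases Ezh1 and Ezh2. The rule found 60 genes among 13085 in the files, which are 16 Kdm, 8 Kmt, 8 Setd, 7 Prmt, 11 Hdac, 8 Kat and 2 Ezh genes. RNA-seq covered 4 stable lines, each with 1 sample, on differentiation day 8. FLAG-CACUL1 cells carry a vector that expresses FLAG-tagged CACUL1, and FLAG cells carry the same vector without it; both were selected with G418. The sh-CACUL1 cells express a hairpin RNA against Cacul1, and the sh-Luc cells one against luciferase; both were selected with Hygromycin B. All lines received the same induction of rosiglitazone (5 μM), IBMX (0.5 mM), dexamethasone (1 μg/ml) and insulin (5 μg/ml) in medium with 10% FBS. The lines came from drug-resistant colonies, and the sources used here do not say whether a line is 1 clone or several.

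Histone acetylation opens chromatin and is written by acetyltransferases and erased by deacetylases, whereas methylation is read according to the residue: methyl groups on H3K4 mark active genes, and those on H3K9 and H3K27 mark silent ones. Fat cell formation is driven by the nuclear receptor PPARγ, whose target genes are held down by corepressors with deacetylase activity and switched on by coactivators with acetyltransferase activity. The study asks how CACUL1, a partner of PPARγ, the deacetylase SIRT1 and the demethylase LSD1, acts on this balance. LSD1 is the product of Kdm1a and removes methyl groups from H3K4 and, with some partners, from H3K9.

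Values are FPKM, fragment counts divided by transcript length and by the mapped fragments of the sample. A difference between lines is the log2 ratio of FPKM + 1, always the CACUL1 line over its own control unless stated, and a gene is called when it passes 2-fold. A counting interval is the 95% range that the estimated number of fragments allows for the ratio without the added 1. With 1 sample per line no difference has a replicate check and no test was possible; counts of called genes are read against the share of all 13085 genes called in that comparison. Cacul1 itself had 9.61 FPKM in FLAG against 11.8 in FLAG-CACUL1, and 10.2 in sh-Luc against 5.39 in sh-CACUL1. It was lower in sh-CACUL1 than in sh-Luc (log2 ratio -0.82) and little higher in FLAG-CACUL1 than in FLAG (0.27), and both stayed short of 2-fold. Both shrank after quantile normalization and median-of-ratios scaling, which bring the medians of the samples together. The ratio in sh-CACUL1 was then -0.36 and -0.40, and that in FLAG-CACUL1 0.17 and 0.14. The row stands for mouse transcripts, and whether reads of the construct fall in it is not known.

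The labels call the cells preadipocytes, but the lines differed widely in their markers. Adipocyte markers (11 of 12 in the files, with Fabp4, Adipoq and Cfd among them) summed to 8587 FPKM in FLAG against 931 in FLAG-CACUL1, and 1744 in sh-Luc against 17717 in sh-CACUL1. The 10 preadipocyte and fibroblast markers summed to 6004, 8627, 4675 and 821 FPKM, respectively, and the 4 markers of proliferating cells to 17.2, 16.1, 50.8 and 19.1 FPKM. Thy1 and Dlk1, at 0.663 and 0.220 FPKM in sh-Luc, were at 21.2 FPKM or above in every other line. Macrophage markers (2 of 5 in the files, Adgre1, Ptprc and Itgam not among them) summed to between 1.08 and 16.8 FPKM, and the 1 endothelial marker present stayed at or under 0.301 FPKM. The part of these states in the differences below was not tested, and in bulk RNA fewer cells of a type and less RNA per cell cannot be told apart. Estimated depth was 14500000, 14300000, 23900000 and 15100000 fragments in the order FLAG, FLAG-CACUL1, sh-Luc, sh-CACUL1. The shift over all genes was 0.09 in the median for FLAG-CACUL1 against FLAG and -0.30 for sh-CACUL1 against sh-Luc, so many genes were a little lower in sh-CACUL1 before any gene is singled out.

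Expression of the enzymes was broad. At least 1 FPKM in all 4 lines was reached by 57 of the 60 members (95%), against 73.1% of all genes, and the others were Hdac9, Kdm8 and Setd4. The most abundant member by mean level was Prmt1, which makes most of the asymmetric dimethylarginine in cells, at 48.0 FPKM in FLAG against 67.5 in FLAG-CACUL1, and 86.4 in sh-Luc against 53.3 in sh-CACUL1. In FLAG Hdac3 was higher, at 58.3 FPKM. By mean level the leading member of each other family was Kdm3a, Kmt5a, Setd3, Hdac3, Kat2a and Ezh1. The lowest was Hdac9, a class IIa deacetylase, at 0.152, 0.0854, 0.269 and 0.285 FPKM, which correspond to between 5 and 24 fragments and support no comparison. Sh-Luc had the highest value of the 4 lines for 34 members and the lowest for only 1, while sh-CACUL1 had the lowest for 26. After quantile normalization these counts were 21, 11 and 12, and after median-of-ratios scaling 20, 9 and 14.

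**Figure D1:**
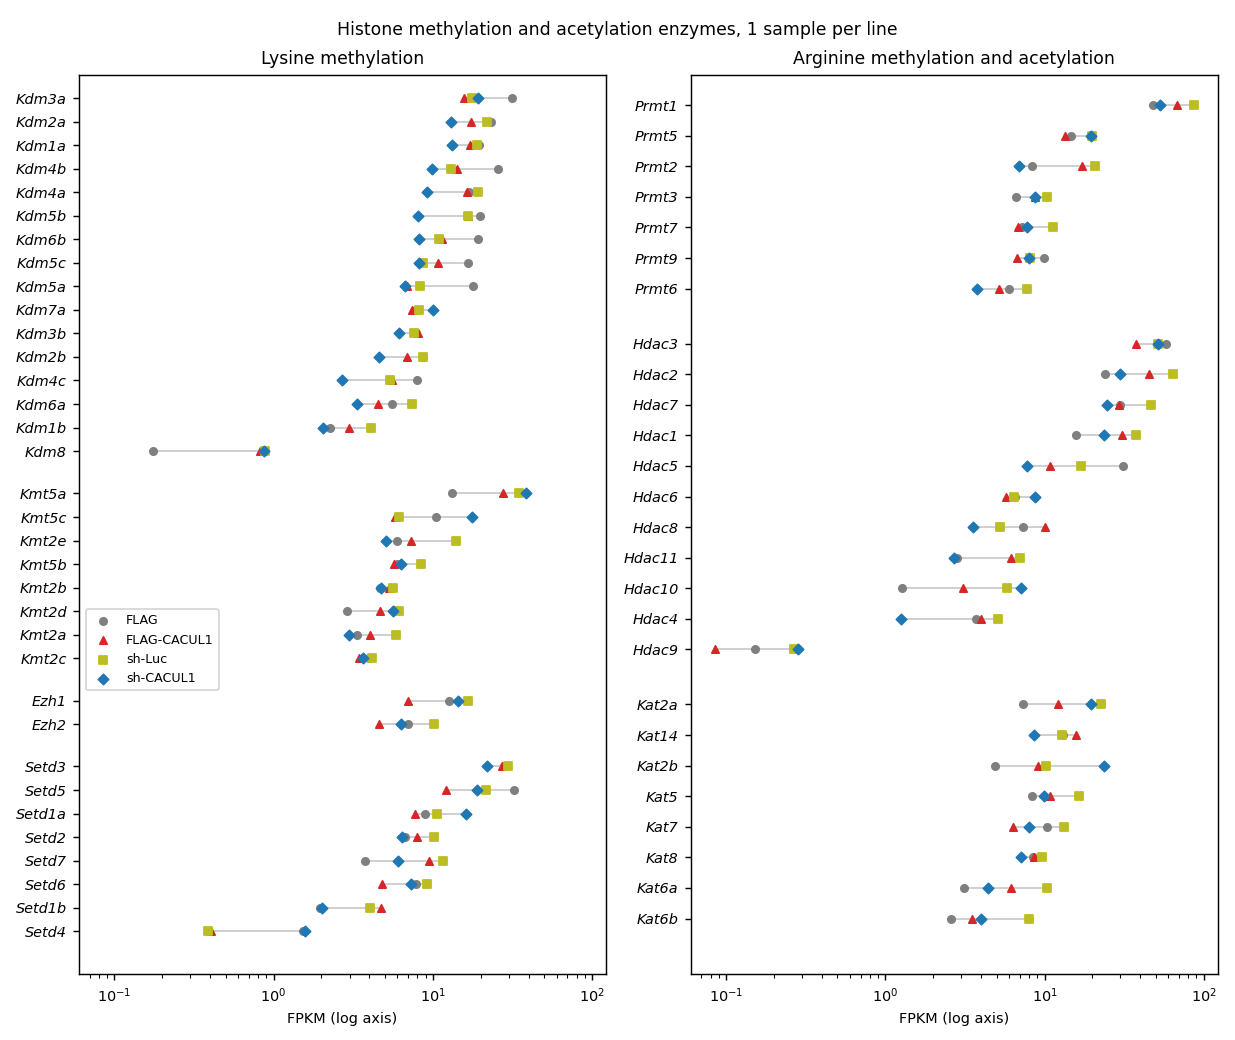
FPKM of the 60 enzymes in the 4 lines on a log axis, 1 point per line and gene, ordered by mean FPKM within a family; the grey bar joins the lowest and highest line. Most genes lie between 1 and 100 FPKM, and the sh-Luc squares are the rightmost points for 34 genes.

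Promoter sequences from RefSeq (GRCm38.p6) were matched for 48 of the 60 genes, with 66 annotated starts. In the window from 250 to 101 bases before the start, the GC content had a median of 58.3% over the members' promoters, 50.7% over 32851 promoters of all genes and 57.3% over the 9726 promoters of genes at 1 FPKM or more in all 4 lines, a set added after the data were seen. The number of CG dinucleotides had a median of 8.5, 3 and 8 in the same order. The GC box GGGCGG was found on either strand in 36.4% of the members' windows, in 16.7% of all windows and in 31.5% of those of expressed genes, so that the members were close to expressed genes in all of these. The CCAAT box was in 31.8%, 19.98% and 20.4%. The hexamer AGGTCA, the core of many nuclear receptor sites including those of PPARγ, was in 7.58%, 8.47% and 6.56%, respectively. Most members thus lacked each of these motifs in this window. A match of letters does not show binding. Windows are printed for Kdm1a, whose product the study followed, and for 3 genes with large differences described below, Hdac5, Setd7 and Kmt5c. Capitals mark the CCAAT box (CCAAT or, on the other strand, ATTGG) and the hexamer AGGTCA; the GC box occurs in none of the 4, and the Setd7 window holds none of these motifs. The windows lie at chr4:136602824-136602973 (minus strand), chr11:102230273-102230422 (minus strand), chr3:51560924-51561073 (minus strand) and chr7:4739877-4740026 (plus strand), respectively.
Kdm1a: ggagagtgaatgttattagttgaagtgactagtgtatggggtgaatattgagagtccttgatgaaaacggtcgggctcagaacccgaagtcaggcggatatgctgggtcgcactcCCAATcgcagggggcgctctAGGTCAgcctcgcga
Hdac5: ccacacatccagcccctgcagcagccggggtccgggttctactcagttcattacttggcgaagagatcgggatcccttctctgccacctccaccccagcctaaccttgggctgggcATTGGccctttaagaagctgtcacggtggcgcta
Setd7: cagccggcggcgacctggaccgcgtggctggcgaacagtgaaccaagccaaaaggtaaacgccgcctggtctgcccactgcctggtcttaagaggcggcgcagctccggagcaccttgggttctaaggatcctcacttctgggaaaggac
Kmt5c: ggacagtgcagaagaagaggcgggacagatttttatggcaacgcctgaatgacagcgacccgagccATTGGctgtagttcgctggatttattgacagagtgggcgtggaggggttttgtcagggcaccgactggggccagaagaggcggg

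To see how the enzymes respond to more CACUL1, FLAG-CACUL1 was compared with FLAG. Only 5 of 60 members passed 2-fold (8.33%), against 14.7% of all genes. The methyltransferase genes Setd7 and Kmt5a were higher, and Hdac5, Setd5 and Kdm5a were lower. Of all genes, 7.51% passed upward and 7.22% downward. The median of the members was -0.05, which is 0.14 below the median of all genes, with 27 members higher (58.7% of all genes were) and 33 lower (41.3% of all genes).

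To see the response to less CACUL1, sh-CACUL1 was compared with sh-Luc. Here 9 of 60 members passed 2-fold (15%), against 21.3% of all genes. Kmt5c and Kat2b were higher, and Prmt2, Hdac4, Kmt2e, Hdac11, Kat6a, Hdac2 and Hdac5 were lower. Upward passes made up 4.94% of all genes and downward passes 16.4%. The median of the members was -0.44, again 0.14 below that of all genes, with 11 members higher (31.3% of all genes were) and 49 lower (68.7% of all genes). After quantile normalization or median-of-ratios scaling, which bring the medians of the samples together, 30 members were higher and 30 lower, so the excess of lower members was present on the deposited scale and not on these.

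**Figure D2:**
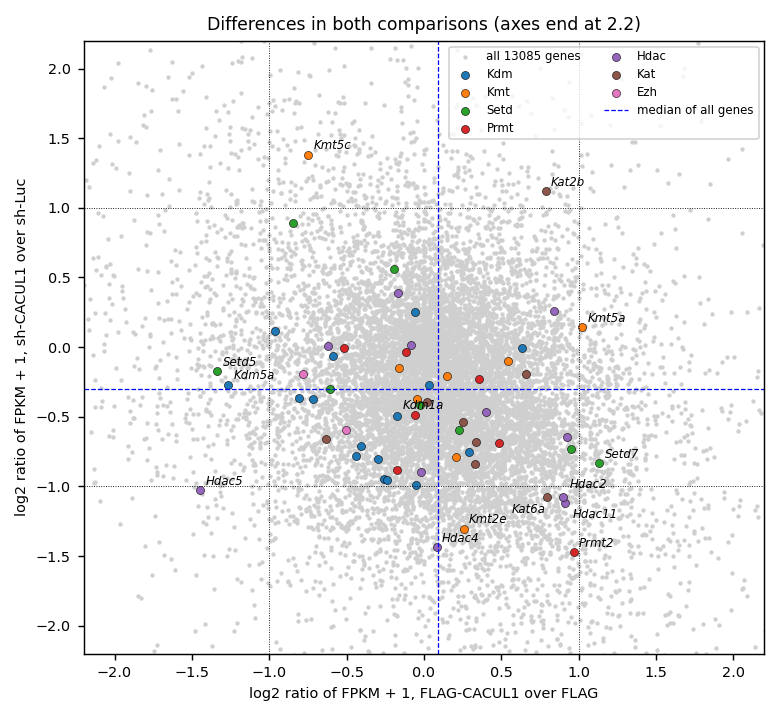
Log2 ratios of FPKM + 1 for FLAG-CACUL1 over FLAG (x axis) and sh-CACUL1 over sh-Luc (y axis), with the 60 enzymes in colour by family over all genes in grey; dotted lines mark 2-fold, dashed lines the medians of all genes. No enzyme lies past 2-fold in the upper left or lower right corner, and Hdac5 alone lies past 2-fold on both axes.

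Hdac5 alone was called in both comparisons. Of the 60 members, 13 passed 2-fold in at least 1 comparison and 47 in neither. None passed in opposite directions in both, against 4.71% of all genes; no test was made, and the number was 3 with a pseudocount of 0.1 (7.89% of all genes) or none (9.94%). Hdac5 passed in the same direction (1.67% of members, 1.09% of all genes). Without a cut-off, FLAG-CACUL1 and sh-Luc, the line of each pair with more CACUL1, were both above FLAG and sh-CACUL1 for 17 members (28.3%, against 31.5% of all genes) and both below for 5 (8.33%, against 9.93%). The latter were Hdac3, Hdac6, Kdm3a, Kmt5c and Setd4. These counts moved with the scaling: after quantile normalization 11 members were above (20.2% of all genes) and 13 below (16.4%), and after median-of-ratios scaling 11 (18.3%) and 14 (18.4%).

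Among the lysine demethylases, Kdm1a (NM_133872, chr4:136550533-136602787) passed 2-fold in neither comparison. It had 19.4 FPKM in FLAG against 17.1 in FLAG-CACUL1, and 18.9 in sh-Luc against 13.1 in sh-CACUL1. As deposited, the controls differed by 0.03 on the log2 scale, and sh-CACUL1 was the lowest line. FLAG against sh-Luc was 0.16 after quantile normalization and 0.31 after median-of-ratios scaling. The log2 ratio was -0.17 for FLAG-CACUL1 and -0.50 for sh-CACUL1, and after quantile normalization the latter was -0.08. Its paralog Kdm1b, an H3K4 demethylase, was low, at 2.25, 2.97, 4.11 and 2.03 FPKM in the order FLAG, FLAG-CACUL1, sh-Luc, sh-CACUL1.

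Kdm5a, an H3K4 demethylase that acts as a corepressor, had 18.0 FPKM in FLAG against 6.88 in FLAG-CACUL1, and 8.27 in sh-Luc against 6.69 in sh-CACUL1. The FLAG control alone was high, so the ratio of -1.27 for FLAG-CACUL1 comes with a ratio of 1.03 between FLAG and sh-Luc. The counting interval for FLAG-CACUL1 against FLAG ran from -1.49 to -1.28. On the deposited scale it was the only Kdm gene past 2-fold in the comparisons of FLAG-CACUL1 with FLAG, sh-CACUL1 with sh-Luc and FLAG with sh-Luc. Between the controls 3 Kdm genes passed after quantile normalization (Kdm4b and Kdm5c beside Kdm5a) and 5 after median-of-ratios scaling (Kdm3a and Kdm6b as well), all higher in FLAG. These are 18.8% and 31.2% of the Kdm genes, against 10.3% and 12% of all genes higher past 2-fold. Kdm5b, of the same subfamily, was lower in sh-CACUL1 (8.12 FPKM against 16.6 in sh-Luc, log2 ratio -0.95).

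The H3K9 demethylases, which clear a silencing mark, had 7 of 8 listed genes in the files, and none passed 2-fold on the deposited scale. In FLAG-CACUL1 6 of the 7 were lower than in FLAG (median -0.17), all 7 lay below the median of all genes, and all 7 were lower under both other scalings. Between the controls 5 of the 7 were higher in FLAG than in sh-Luc, and 6 and 7 were after quantile normalization and median-of-ratios scaling. Against sh-Luc, 4 of the 7 were lower in FLAG-CACUL1 and 3 higher (median -0.13, all genes -0.10). In sh-CACUL1 5 of the 7 were lower than in sh-Luc (median -0.36, with 68.7% of all genes lower), and 3 of 7 after either scaling. Phf2, which the paper names as an H3K9 demethylase, is not among the listed genes. It was higher in FLAG-CACUL1, at 15.2 FPKM against 10.5 in FLAG (ratio 0.50, and 0.39 and 0.37 after scaling). Its ratio in sh-CACUL1 was -0.54 as deposited, and -0.09 and -0.11 after scaling. Of the 6 further jumonji proteins described below, Phf2 included, 2 were higher in FLAG-CACUL1 and 4 lower. Kdm3a, a jumonji enzyme known for its role in fat metabolism, was the most abundant demethylase by mean level over the 4 lines. It had 31.6 FPKM in FLAG against 15.7 in FLAG-CACUL1, and 17.7 in sh-Luc against 19.3 in sh-CACUL1. Its ratio in FLAG-CACUL1 was -0.96, and -1.10 after median-of-ratios scaling, and the FLAG line again stood apart from the other three. Kdm4b, which acts on H3K9 and H3K36, had 25.7 FPKM in FLAG and 14.3, 13.0 and 9.86 FPKM in FLAG-CACUL1, sh-Luc and sh-CACUL1 (ratios -0.81 and -0.36, the latter 0.09 after quantile normalization). Kdm4a and Kdm4c, of the same group, were lower in sh-CACUL1 than in sh-Luc by ratios of -0.99 and -0.78, with 9.23 against 19.4 FPKM for Kdm4a and 2.71 against 5.37 FPKM for Kdm4c. Their relatives Kdm3b and Kdm7a stayed within 0.04 and 0.06 of 0 in FLAG-CACUL1, and their ratios in sh-CACUL1 were -0.27 and 0.25 (0.19 and 0.73 after quantile normalization). Kdm7a was highest in sh-CACUL1, at 10.0 FPKM against 7.45 to 8.25 FPKM elsewhere.

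The demethylases as a family were most abundant in FLAG, where their FPKM summed to 231.1, against 162.6 in FLAG-CACUL1. The sums were 177.8 in sh-Luc against 125.5 in sh-CACUL1. In FLAG-CACUL1 13 of 16 were lower than in FLAG (41.3% of all genes were), with a median of -0.28, and 14 of 16 were lower under both other scalings. Between the controls 10 of 16 were higher in FLAG than in sh-Luc (median 0.06, all genes -0.18). Against sh-Luc, 11 of 16 were lower in FLAG-CACUL1 (median -0.14, all genes -0.10). In sh-CACUL1 14 of 16 were lower than in sh-Luc (median -0.43, with 68.7% of all genes lower), but only 8 of 16 were after quantile normalization or median-of-ratios scaling. The 2 H3K27 demethylases Kdm6a and Kdm6b, which oppose Polycomb, had a median of -0.48 in FLAG-CACUL1 and of -0.66 under knockdown, and neither passed 2-fold.

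**Figure D3:**
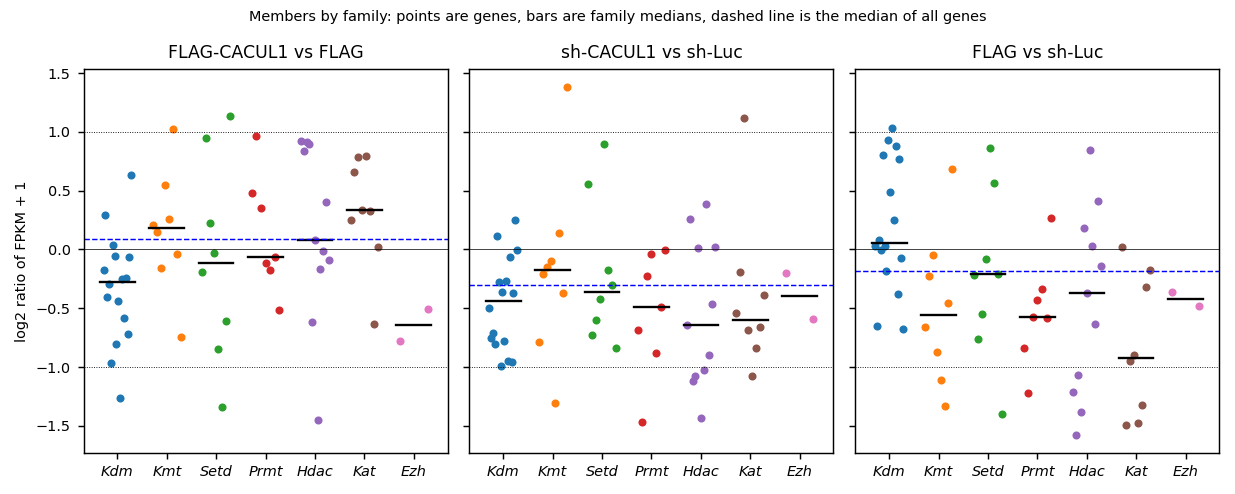
Log2 ratios of FPKM + 1 of every enzyme by family in the 3 comparisons; points are genes, black bars family medians, the dashed line the median of all genes and dotted lines 2-fold. For FLAG-CACUL1 against FLAG the Kdm median is -0.28 and the Kat median 0.33; for FLAG against sh-Luc they are 0.06 and -0.92.

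Among the lysine methyltransferases, the H4K20 enzymes stood in different proportions in the 4 lines. Kmt5a, which places the first methyl group on H4K20 and works around mitosis, had 13.2 FPKM in FLAG against 27.8 in FLAG-CACUL1, and 34.7 in sh-Luc against 38.4 in sh-CACUL1. FLAG was the low line, and the ratio for FLAG-CACUL1 was 1.02, and 0.96 after quantile normalization. Kmt5c, which adds the further methyl groups typical of silent heterochromatin, had 10.5 FPKM in FLAG against 5.82 in FLAG-CACUL1, and 6.12 in sh-Luc against 17.6 in sh-CACUL1. FLAG-CACUL1 and sh-Luc were both below FLAG and sh-CACUL1, with ratios of -0.75 and 1.38. The counting interval of the latter was 1.32 to 1.72. FLAG against sh-Luc gave 0.69. Kmt5b, which shares that activity, had ratios of -0.04 and -0.37, the latter 0.09 after quantile normalization. Within a line, Kmt5a was 1.26 times as abundant as Kmt5c in FLAG, 4.77 times in FLAG-CACUL1, 5.67 times in sh-Luc and 2.19 times in sh-CACUL1, a ratio that does not depend on the scaling between samples and was chosen after the values were seen.

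Of the H3K4 methyltransferases, 5 of 7 were higher in FLAG-CACUL1 (median 0.21), as were 58.7% of all genes. In sh-CACUL1 6 of 7 were lower (median -0.21), as were 68.7% of all genes, and 3 of 7 were after quantile normalization. Setd7, which monomethylates H3K4 and several transcription factors, had 3.76 FPKM in FLAG against 9.42 in FLAG-CACUL1, and 11.5 in sh-Luc against 6.02 in sh-CACUL1. In both pairs the line with more CACUL1 was higher, with ratios of 1.13 and -0.83. The controls themselves differed by -1.40. Kmt2e, an MLL relative with no established methyltransferase activity of its own, had 5.98, 7.34, 14.1 and 5.10 FPKM in the order FLAG, FLAG-CACUL1, sh-Luc, sh-CACUL1. The sh-Luc value stood out, and the ratio of -1.30 in sh-CACUL1 was -0.86 after quantile normalization. The large H3K4 enzymes Kmt2a, Kmt2b, Kmt2c and Kmt2d stayed between 2.88 and 6.11 FPKM in every line and passed 2-fold in neither comparison.

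Setd5, a SET-domain protein found with HDAC3 and NCoR, had 32.3 FPKM in FLAG against 12.2 in FLAG-CACUL1, and 21.6 in sh-Luc against 19.0 in sh-CACUL1. FLAG was high and FLAG-CACUL1 low, with a ratio of -1.34 and a counting interval of -1.51 to -1.31, whereas the hairpin lines were close (-0.17). Setd3, which methylates actin, was the leading Setd gene by mean and was even across lines, from 22.0 to 29.7 FPKM. Setd4 was at 1.53, 0.406, 0.386 and 1.58 FPKM in the order FLAG, FLAG-CACUL1, sh-Luc, sh-CACUL1, from 11 to 43 fragments, with ratios of -0.85 and 0.89. In sh-CACUL1 it passed 2-fold after quantile normalization (1.09) and median-of-ratios scaling (1.11), as did Setd1a, an H3K4 methyltransferase (0.56 as deposited, 1.02 and 1.00 after scaling). The Polycomb enzymes Ezh1 and Ezh2, which methylate H3K27, were both lower in both comparisons as deposited, without passing 2-fold. In sh-CACUL1 Ezh1 had -0.20 as deposited but 0.23 after quantile normalization and 0.25 after median-of-ratios scaling, whereas Ezh2 stayed lower (-0.59, -0.14 and -0.17). Ezh1, the form of non-dividing cells, had 12.7, 6.97, 16.6 and 14.3 FPKM, and FLAG-CACUL1 was its low line (ratio -0.78). Against sh-Luc, the FLAG-CACUL1 value of Ezh1 gave -1.14, the only member past 2-fold in that comparison (9.9% of all genes).

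The arginine methyltransferases held 1 called gene. Prmt2, an enzyme that also serves as a coactivator of nuclear receptors, had 8.34 FPKM in FLAG against 17.3 in FLAG-CACUL1, and 20.8 in sh-Luc against 6.87 in sh-CACUL1. FLAG-CACUL1 and sh-Luc were both above FLAG and sh-CACUL1, and the controls themselves differed by -1.22 (FLAG against sh-Luc). The ratio was 0.97 in FLAG-CACUL1, just short of 2-fold, and -1.47 in sh-CACUL1, the largest fall of any member on this scale; it was -1.07 after quantile normalization. In sh-CACUL1 all 7 Prmt genes were lower than in sh-Luc (median -0.49, with 68.7% of all genes lower), and 4 of 7 after either scaling. Prmt5, which makes symmetric dimethylarginine, was close in both as deposited, with ratios of -0.12 and -0.03. After quantile normalization they were -0.18 and 0.37, and after median-of-ratios scaling -0.25 and 0.42.

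The class I deacetylases are the catalytic subunits of the Sin3, NuRD, CoREST (Hdac1 and Hdac2) and NCoR (Hdac3) corepressors. Hdac2 had 23.9 FPKM in FLAG against 45.4 in FLAG-CACUL1, and 64.1 in sh-Luc against 29.9 in sh-CACUL1. Its paralog Hdac1 had 15.7, 30.8, 37.7 and 23.7 FPKM. Both genes were higher in the line with more CACUL1 in each pair, with ratios of 0.90 and -1.07 for Hdac2 and of 0.93 and -0.65 for Hdac1. Hdac3, at 58.3, 37.7, 51.3 and 51.6 FPKM, fell short of its FLAG level in FLAG-CACUL1 (-0.62) and was level between the hairpin lines (0.01, with a counting interval of -0.08 to 0.10; 0.31 after quantile normalization). Hdac8, a class I enzyme outside these complexes, had 7.36, 10.0, 5.29 and 3.56 FPKM. Hdac2 was thus the only class I gene called, and only in sh-CACUL1; quantile normalization brought it to -0.75. Within a line the balance of Hdac2 to Hdac3 was 0.411 in FLAG against 1.21 in FLAG-CACUL1, and 1.25 in sh-Luc against 0.580 in sh-CACUL1. Of the summed class I FPKM, Hdac3 made up 55.3%, 30.4%, 32.4% and 47.4%. These within-line balances, also chosen after the values were seen, need no scaling between samples. FLAG and sh-CACUL1, the lines with the higher adipocyte marker sums, had the higher Hdac3 shares. Hdac3 itself was level between the hairpin lines, and a link of its share with the markers was not tested.

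Class IIa deacetylases shuttle between nucleus and cytoplasm and repress MEF2 targets. Hdac5 had 31.1 FPKM in FLAG against 10.8 in FLAG-CACUL1, and 16.9 in sh-Luc against 7.80 in sh-CACUL1. It was the only member lower past 2-fold in both comparisons, with ratios of -1.45 and -1.03 and counting intervals of -1.67 to -1.39 and -1.27 to -0.97. Quantile normalization left the first at -1.44 and brought the second to -0.60, under 2-fold. Hdac4 had 3.73, 4.004, 5.12 and 1.26 FPKM, so that sh-CACUL1 alone was low; its ratio there was -1.43, and -1.07 after quantile normalization, and the pair of FLAG lines differed by 0.08. Hdac7, the most abundant of the class in 3 lines, had 29.8, 29.4, 46.8 and 24.6 FPKM. The ratio of Hdac5 to Hdac7 was 1.04 in FLAG and between 0.317 and 0.366 in the other lines.

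Hdac11, the single class IV enzyme, had 2.82 FPKM in FLAG against 6.203 in FLAG-CACUL1, and 7.01 in sh-Luc against 2.68 in sh-CACUL1. FLAG-CACUL1 and sh-Luc were both above FLAG and sh-CACUL1, with ratios of 0.91 and -1.12. Quantile normalization brought the latter to -0.67. The controls themselves differed by -1.07 (FLAG against sh-Luc). The class IIb enzymes Hdac6, a tubulin deacetylase, and Hdac10, a polyamine deacetylase, were higher in sh-CACUL1 by 0.39 and 0.26 and passed 2-fold in neither comparison. Hdac10 had 1.28, 3.08, 5.81 and 7.15 FPKM, with FLAG as the low line.

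**Figure D4:**
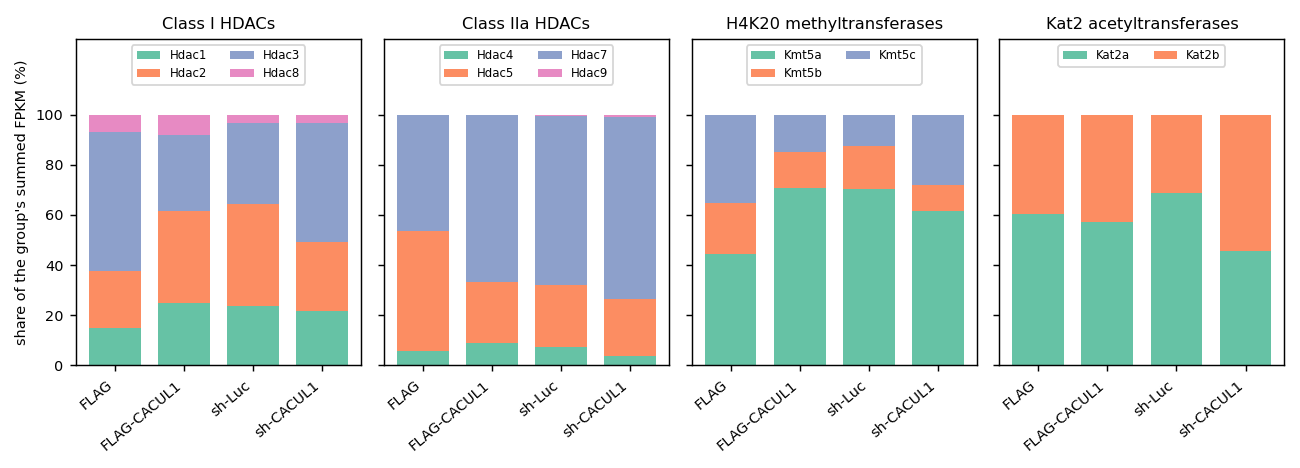
Share of each gene in the summed FPKM of its group (percent, bars from 0 to 100) in the 4 lines, for class I and class IIa deacetylases, H4K20 methyltransferases and Kat2 acetyltransferases. Hdac3 takes 55.3% of class I in FLAG and 47.4% in sh-CACUL1, against 30.4% and 32.4% in FLAG-CACUL1 and sh-Luc.

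Acetyltransferases were mostly higher in FLAG-CACUL1 than in FLAG, in 7 of 8 genes (58.7% of all genes were) with a median of 0.33 (6 of 8 after either scaling), although none passed 2-fold. This depended on the control. Between the controls 7 of 8 were lower in FLAG than in sh-Luc (median -0.92, all genes -0.18). Against sh-Luc, 7 of 8 were lower in FLAG-CACUL1 (median -0.62, all genes -0.10). In sh-CACUL1 7 of 8 were lower (median -0.60, with 68.7% of all genes lower), and 5 of 8 after scaling. Kat2b, which encodes PCAF, was the exception, at 4.86 FPKM in FLAG against 9.11 in FLAG-CACUL1, and 10.3 in sh-Luc against 23.5 in sh-CACUL1. Its ratio was 1.12 in sh-CACUL1, and 1.58 after quantile normalization, so the gene rose there under each scaling tried. The paralog Kat2a, which encodes GCN5, had 7.37, 12.2, 22.5 and 19.6 FPKM and ratios of 0.66 and -0.19, the latter 0.22 after quantile normalization. Kat2b therefore made up 54.5% of the summed pair in sh-CACUL1 and 31.3% to 42.7% elsewhere. Kat6a, the MYST enzyme MOZ, had 3.11, 6.14, 10.4 and 4.43 FPKM. It was lowest in FLAG and highest in sh-Luc, with ratios of 0.80 and -1.07, and the latter was -0.61 after quantile normalization.

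The controls give the scale of differences between lines that were not treated for CACUL1 but differ in vector and drug. FLAG against sh-Luc called 12 of 60 members (20%), against 21% of all genes, more members than either CACUL1 comparison. Of these 11 were lower in FLAG (12.4% of all genes were), namely Hdac1, Hdac2, Hdac10, Hdac11, Kat2a, Kat6a, Kat6b, Kmt2e, Kmt5a, Prmt2 and Setd7, and Kdm5a was higher (8.58% of all genes were). This split depended on the scaling: 3 members were higher and 9 lower after quantile normalization, and 6 higher and 7 lower after median-of-ratios scaling, with 19% and 19.1% of all genes past 2-fold. Setd7, Kmt5a and Kdm5a, 3 of the 5 genes called in FLAG-CACUL1, and Hdac2, Hdac11, Kat6a, Kmt2e and Prmt2, 5 of the 9 called in sh-CACUL1, were thus also past 2-fold between controls. Every comparison that uses FLAG or sh-Luc shares that control with this one. Against the other control, 0 of the 5 calls in FLAG-CACUL1 and 3 of the 9 in sh-CACUL1 remained, the latter being Hdac4, Hdac5 and Kat2b. For these overlaps and kept calls no share of all genes was computed, so they are not read as a trait of the members. Against FLAG, sh-CACUL1 had 11 members past 2-fold (22.9% of all genes were). Counting error was small beside these differences. The interval of the ratio excluded 0 for 47, 54 and 49 of the 60 members in FLAG-CACUL1 against FLAG, sh-CACUL1 against sh-Luc and FLAG against sh-Luc. The share of all genes was not computed, so these counts are not read as a trait of the members. The intervals are on the deposited scale, where the median of all genes was 0.09, -0.30 and -0.18, respectively. Such intervals hold nothing of the variation between cultures.

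Enzymes and partners outside the symbol rule were listed by function. Of the 25 subunits of the CoREST, Sin3, NuRD and NCoR complexes, 24 were lower in sh-CACUL1 than in sh-Luc, 5 of them past 2-fold (20%, against 16.4% of all genes, of which 68.7% were lower), with a median of -0.68; 19 of 25 were lower after quantile normalization and 20 after median-of-ratios scaling, with 2 past 2-fold under either. Sap30, a Sin3 subunit, had 57.4 FPKM in FLAG against 8.67 in FLAG-CACUL1, and 5.31 in sh-Luc against 1.25 in sh-CACUL1, with ratios of -2.59 and -1.48, and a ratio of 3.21 between the controls. Rcor2, a CoREST scaffold of LSD1, had 41.6, 13.9, 12.7 and 9.11 FPKM (ratios -1.51 and -0.44), so that the FLAG control alone was high. Gatad2b, of NuRD, had 8.42, 5.88, 10.3 and 2.89 FPKM (-0.45 and -1.53). In FLAG-CACUL1 14 of the 25 were higher (58.7% of all genes were) and 2 were lower past 2-fold (8%, against 7.22% of all genes), Sap30 and Rcor2.

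Of 7 PRC2 partners of Ezh1 and Ezh2, Jarid2 alone passed 2-fold, at 5.79, 0.947, 2.62 and 3.19 FPKM in the order FLAG, FLAG-CACUL1, sh-Luc, sh-CACUL1 (ratios -1.80 and 0.21); Suz12, Aebp2 and Mtf2 had ratios of -0.79, -0.62 and -0.21 in FLAG-CACUL1 and of -0.44, -0.66 and -0.70 in sh-CACUL1. None of 9 MLL and SET1 core subunits passed in either comparison as deposited, and Men1, Hcfc1, Ash2l and Ncoa6 had the largest ratios, of -0.91 and 0.75 in FLAG-CACUL1 and of -0.93 and -0.87 in sh-CACUL1, respectively; Men1 was at -1.04 after median-of-ratios scaling. None of 15 other lysine and arginine methyltransferases passed as deposited, with Dot1l (H3K79) at -0.98 and Nsd1 (H3K36) at 0.83 in FLAG-CACUL1, and Smyd5 and Nsd3 at -0.99 and -0.98 in sh-CACUL1. Dot1l passed under both other scalings, at -1.07 and -1.09. Among 6 further jumonji proteins none passed in the CACUL1 comparisons as deposited; Jmjd6 and Jmjd1c had -0.92 and -0.89 in FLAG-CACUL1 (-1.06 and -1.02 after median-of-ratios scaling), and Jmjd1c and Riox2 -0.91 and -0.77 in sh-CACUL1. Between the controls Jmjd6 was higher in FLAG (1.24) and Riox2 lower (-1.11), the latter -0.86 after quantile normalization.

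Other acetyltransferases included the coactivators of PPARγ outside the Kat names. Ep300 had 4.32 FPKM in FLAG against 8.29 in FLAG-CACUL1, and 11.4 in sh-Luc against 4.34 in sh-CACUL1, and its relative Crebbp had 3.22, 4.37, 8.001 and 2.96 FPKM. Ep300 was higher with more CACUL1 in each pair (0.80 and -1.21), and Crebbp was called in sh-CACUL1 (-1.19), as was Ncoa3 (-1.16). After either scaling 0 of the 7 genes were called there. Between the controls Ep300 and Crebbp were lower in FLAG, with ratios of -1.22 and -1.09. Their ratios for sh-CACUL1 against FLAG were 0.005 and -0.09. Ncoa1 had ratios of -0.68 and 0.36. Of 7 sirtuins, Sirt1, whose protein the study links to CACUL1, was low throughout, at 0.602, 2.24, 2.69 and 1.35 FPKM (1.02 and -0.65), and was not past 2-fold after either scaling. FLAG was its low line, at 0.602 FPKM against 2.69 in the other control. Sirt6, an H3K9 deacetylase, was called in sh-CACUL1, at 18.7, 11.99, 16.1 and 5.23 FPKM (-0.60 and -1.46). Sirt2, the most abundant sirtuin, had ratios of 0.19 and -0.89.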

How the data were processed

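RNA of 4 stable 3T3-L1 lines was sequenced by a company, 1 sample per line. The authors deposited FPKM values for 13110 rows of RefSeq transcripts; the labels name the build mm10, and the aligner, the FPKM program and any filter are not given in the sources used here. Rows were joined to symbols through GENCODE M21 (GRCm38): 196 rows had no symbol, 8 had more than 1, and 50 rows of 25 symbols were summed, none of them a member. Kdm4d, Kdm5d and Prmt8 match the rule but have no row. Gene positions and promoters come from RefSeq GRCm38.p6.

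Ratios are log2(FPKM + 1) with a cut-off of 2-fold; a ratio understates changes of low genes. No test was run. Depth was estimated from the spacing of low FPKM values multiplied by transcript length, among single-transcript rows with 3000 bases or more: the spacing, the value of 1 fragment on 1 kb, was 0.0691, 0.0700, 0.0419 and 0.0664 in the order FLAG, FLAG-CACUL1, sh-Luc, sh-CACUL1. From the fragments this gives, exact (Clopper-Pearson) 95% intervals of the ratio were computed; they cover counting error only. Members, lists and the rule for named genes (Kdm1a, all members past 2-fold, the most abundant of each family, H3K9 demethylases, class I deacetylases and, per list of related genes, the 2 largest differences in each comparison) were chosen with earlier results of these data known; other genes were named after their values were seen. Alternatives were other pseudocounts, filters, scalings, cut-offs, the other control and 1 row per symbol. The scripts were tested on simulated data. Python 3.11.15, numpy 2.4.6, scipy 1.17.1, pandas 2.3.3 and matplotlib 3.10.9 were used.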

Additional observations from a re-analysis of the deposited data

How the results depend on the processing

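No paired analysis was possible because each line has 1 sample and the replicate number is the same in all 4. With a pseudocount of 0.1 the members past 2-fold were 12 in FLAG-CACUL1 against FLAG (24.2% of all genes) and 14 in sh-CACUL1 against sh-Luc (31.8%), and with none 12 (28.8%) and 15 (36.7%); the genes called with a pseudocount of 1 were all kept, and 3 members then passed in opposite directions. With a cut-off of 1.5-fold the counts were 25 (34.3% of all genes) and 29 (44.4%), with 28 (43%) between the controls and 9 (13.8%) in opposite directions; with 3-fold they were 0, 0 and 0 (5.07%, 7.15% and 7.6%). Against the other control, 1 member passed in FLAG-CACUL1. The median over the members became -0.16 in FLAG-CACUL1 with median-of-ratios scaling and -0.29 against the other control; in sh-CACUL1 it was -0.01 after quantile normalization, -0.01 (-0.008) after median-of-ratios scaling and -0.10 against the other control; between the controls it was -0.09 and -0.08 under the same scalings. Both scalings dropped Kmt5a in FLAG-CACUL1 and Hdac2, Hdac5, Hdac11, Kat6a and Kmt2e in sh-CACUL1, where they split the calls into 4 up and 2 down in place of 2 and 7. All genes shifted the same way, from 4.94% up and 16.4% down to 9% and 8.28% after quantile normalization. After median-of-ratios scaling the shares of all genes were 9.41% and 7.45%. Both added Setd1a and Setd4 in sh-CACUL1, and median-of-ratios scaling added Kdm3a in FLAG-CACUL1. Against the other control Kmt5a (-0.31) and Setd7 (-0.27) reversed in FLAG-CACUL1, and Hdac2 (0.31) and Kat6a (0.40) in sh-CACUL1. The cause was not tested. Filters on low values and 1 row per symbol moved no count. Depth limits Hdac9, Kdm8 and Setd4, with 5 to 50 fragments.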
